A study of Capra hircus with 9 samples.

Results

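The ABC efflux and sterol transporter genes described here are ABCG2, ABCA1, ABCG1, ABCA7, ABCC1, ABCC4 and ABCC5. They were taken by gene symbol from the deposited expression table and make up 7 of its 23499 genes, and 7 of the 45 ABC family genes it holds out of 48 searched for. The table gives 1 value per gene for 9 mammary gland libraries, each from 1 healthy adult Laoshan dairy goat in the third parity. The goats were slaughtered in late lactation (LL, 240 days postpartum, n = 3), in the dry period (DP, 300 days postpartum, n = 3) or in late gestation (LG, 140 days after mating, n = 3), and carried no other labelled treatment. Each stage was sampled from different animals, so the p-values measure the spread between goats of a stage, and whole tissue was used, so that fewer cells of a type and less RNA per cell cannot be told apart.

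ABC transporters are membrane proteins that use ATP to move substrates across a bilayer. ABCG2, also called BCRP, sits in the apical membrane of the milk-secreting epithelium and passes riboflavin, urate and many drugs into milk. ABCA1 and ABCG1 export cholesterol and phospholipid to apolipoprotein A-I and HDL and are classic targets of the liver X receptors, while ABCA7 is a close relative of ABCA1 with roles in lipid export and phagocytosis. ABCC1, ABCC4 and ABCC5 belong to the multidrug resistance protein group and export organic anions, among them glutathione conjugates and cyclic nucleotides.

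In the table's coordinates, ABCG2 (gene ID 100860857) lies on chromosome 6 at 36987765 to 37119019 on the plus strand. ABCA1 (102179197) lies on chromosome 8 at 94415525 to 94547054 on the minus strand, and ABCA7 (102175208) on chromosome 7 at 66920520 to 66938663 on the minus strand. ABCG1 (102181242) and ABCC5 (102186159) share chromosome 1, at 142067271 to 142132372 and at 82810850 to 82893600, both on the plus strand. ABCC4 (102170612) lies on chromosome 12 at 16397253 to 16585700 and ABCC1 (102177770) on chromosome 25 at 14181754 to 14337412, both on the plus strand. The table names no genome build, and the start and end of all 7 genes equal those of the ARS1.2 RefSeq gene table.

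No unit is named in the table, whose values were taken to be FPKM, a level per length of transcript and per size of library and the measure named where the study describes its expression levels. Being per length, FPKM can be compared between genes. The number of reads behind a value is unknown, and no value has a counting error. The 10 highest genes held 80.6% to 86.0% of the summed FPKM in LL and 53.6% to 58.5% in DP and LG. Each library was therefore also divided by a median-ratio scaling factor (0.498 to 0.605 in LL, 1.44 to 1.53 in DP, 1.2 to 1.31 in LG), and these values are called scaled FPKM. Left unscaled, the median log2 fold change of all genes tested was 1.09 for DP against LL, 0.93 for LG against LL and -0.18 for LG against DP. Unless another setting is named, every log2 fold change below is a log2 difference of scaled FPKM + 1, which understates the change of low genes. Values written as -fold are ratios of mean scaled FPKM with no pseudocount. A gene is called changed when its log2 fold change was 1 or more in size and its adjusted p was under 0.05. The adjusted p is from limma with the Benjamini-Hochberg procedure.

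The values of ABCA7 equal those of its neighbour CNN2 minus a fixed amount in each library, which was 1.0, 1.3 and 1.5 FPKM in the LL libraries, 1.0, 1.5 and 1.5 in those of DP and 1.5, 1.2 and 1.0 in those of LG. The same 9 amounts separate ABCB4 from ABCB1, so neither ABCA7 nor this pair is a separate measurement. Genes were crowded just above these amounts in LL, where 1542 to 1790 genes lay in the 0.3 FPKM above them and 191 to 437 in the 0.3 FPKM below, against 332 to 349 above and 263 to 352 below for DP and 561 to 634 above and 178 to 394 below for LG. In DP the counts per 0.1 FPKM bin rose at higher values than the amounts. They went from 98 to 161 genes at 1.5 FPKM in DP replicate 1. At 2.0 FPKM they went from 116 to 204 in DP replicate 2 and from 128 to 210 in DP replicate 3. ABCG2, ABCA1, ABCA7, ABCC1 and ABCC4 were at or above the amount in all 9 libraries, whereas ABCC5 was below it in LL and ABCG1 in LL and LG. ABCA7 is the lower row of its pair, and whether it or any other of the 7 genes carries the amounts was not tested. Subtracting the amounts, in one way from genes at or above them in all 9 libraries and in another from each value at or above them, was tried as an alternative.

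**Figure D1:**
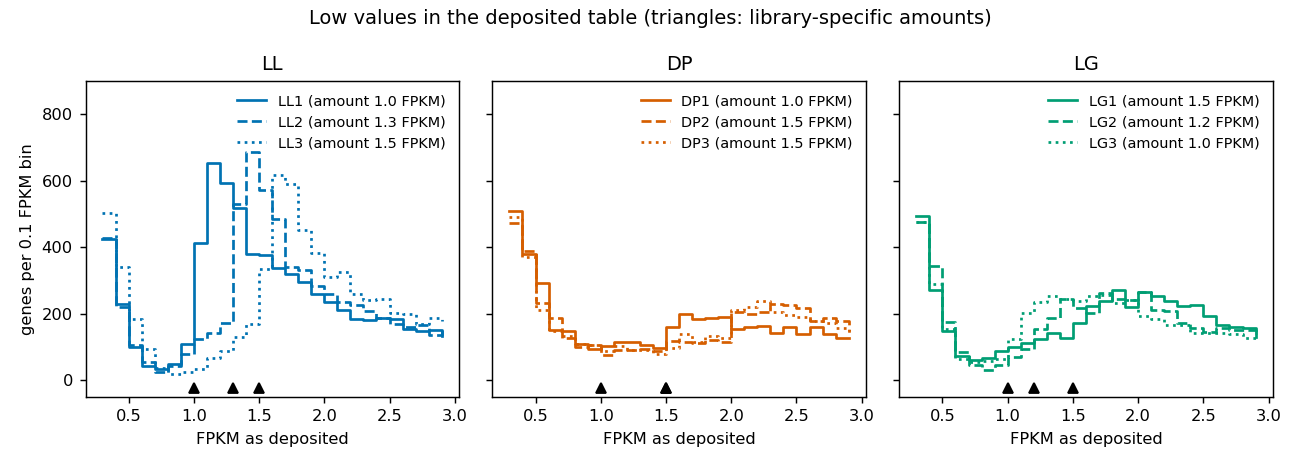
Number of genes per 0.1 FPKM bin (y axis) against the deposited FPKM from 0.3 to 3 (x axis) in the 3 libraries of each stage, with triangles at the library-specific amounts. In LL the counts rise steeply at the amounts, from 191 to 437 genes in the 0.3 FPKM below to 1542 to 1790 in the 0.3 FPKM above. ABCA1, ABCA7, ABCC1 and ABCC4 were above the amounts in LL, at 1.23 to 2.61 FPKM.

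ABCG2 was the highest of the 7 genes in late lactation and fell in both other stages, while ABCA1 was high only in the dry period and ABCC5 was near 0 only in late lactation. In DP against LL, 2 of the 7 genes were called higher (ABCA1 and ABCC5), where 13.8% of all 14701 genes tested were called higher. ABCG2 was the 1 called lower, against 8.79% of all genes. In LG against LL, ABCC5 was called higher, against 10.7% of all genes, and ABCG2 lower, against 6.61%. In LG against DP, no member was called higher, against 6.37% of all genes, and ABCA1 and ABCG1 were called lower, against 6.88%. ABCG2 had an adjusted p of 0.0532 there. All 7 passed the filter on low values (0.5 FPKM or more in at least 3 libraries). ABCC5 passed it only through DP and LG, with 0.07 to 0.17 FPKM in LL. ABCG1 passed it only with its DP values, since outside DP only LL replicate 1 (0.57) and LG replicate 2 (0.68) reached 0.5.

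**Figure D2:**
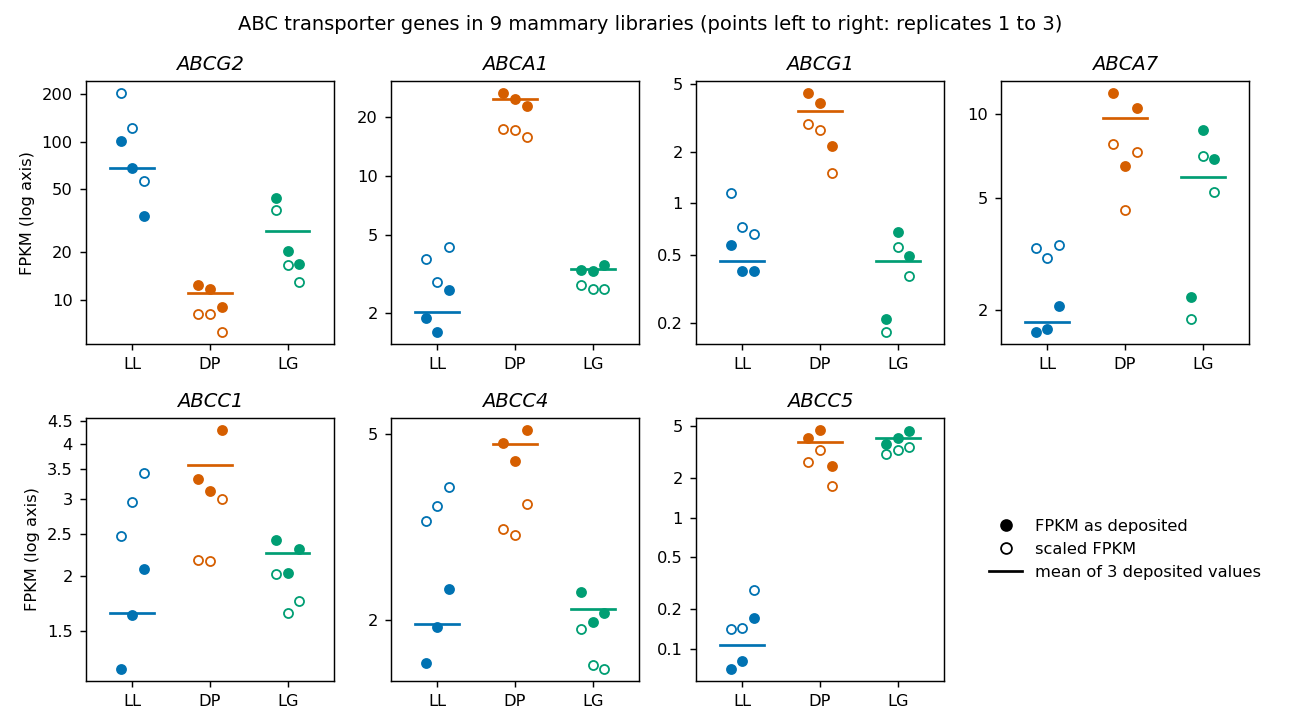
FPKM (y axis, log scale) of the 7 genes in the 9 libraries by stage (x axis), as deposited (filled points, with a line at their mean) and after scaling (open points). ABCG2 was lowest and ABCA1 highest in DP on either scale, and ABCC5 was under 0.2 FPKM as deposited in all 3 LL libraries and at 2.49 or more in the other 6.

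ABCG2 measured 101.58, 68.21 and 34.12 FPKM in the 3 LL libraries, 12.40, 11.62 and 8.94 in DP and 44.24, 20.31 and 16.91 in LG. All LL values were above all DP values, whereas the lowest LL library lay under the highest LG library. The mean was 68.0 ± 33.7 FPKM for LL, 27.2 ± 14.9 for LG and 11.0 ± 1.82 for DP (SD, n = 3 each), so the spread was wide in LL and LG. After scaling, the 3 stages did not overlap, with 56.4 to 204.1 in LL, 12.9 to 36.9 in LG and 6.21 to 8.12 in DP, and the scaled mean was 17.1-fold higher in LL than in DP and 5.79-fold higher in LL than in LG. With the amounts subtracted by the first way these became 27.3-fold and 7.87-fold. The log2 fold change was -3.75 (SE 0.47, limma adjusted p = 0.000146) in DP against LL and -2.44 (SE 0.47, limma adjusted p = 0.00229) in LG against LL. Both calls held in each of the 22 other settings tried, with ranges of -4.37 to -2.40 and -2.95 to -1.28. The size depended on the scaling, and the values nearest 0 (-2.40 and -1.28) were those without scaling.

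ABCG2 had a log2 fold change of 1.32 (SE 0.47) in LG against DP and missed the threshold with a limma adjusted p of 0.0532, although all 3 LG values were above all 3 DP values. It was called when LL replicate 1 (1.33), LL replicate 3 (1.33) or LG replicate 3 (1.61) was left out, with adjusted p-values of 0.0335, 0.023 and 0.0464. It was called in 8 of the 22 other settings, over which the adjusted p ranged from 0.00862 to 0.173.

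Genes of the milk-secreting epithelium moved with ABCG2. The summed FPKM of CSN1S1, CSN2, CSN3 and LALBA was 235487 to 315528 for LL, 7417 to 10466 for LG and 80.1 to 107.2 for DP. All 4 were called lower in DP and in LG against LL and higher in LG than in DP, none was at 0, and CSN1S1 and CSN3 hold linked values. The luminal epithelial markers KRT8, KRT18, KRT19, EPCAM, CDH1 and ELF5 were detected in every library, with a summed scaled FPKM of 819 to 1106 for LL, 733 to 891 for LG and 269 to 522 for DP. As deposited the sums were 496 to 612 for LL, 904 to 1170 for LG and 410 to 753 for DP, so that LG was then the highest stage and DP overlapped LL. Only ELF5, a transcription factor of alveolar cells, was called among these 6, with log2 fold changes of -4.19 in DP against LL and 3.82 in LG against DP, and the part of such cells in the ABCG2 result was not tested.

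The 2 genes whose centred log2 values were nearest to those of ABCG2 over the 9 libraries, among 12262 genes with a symbol, were SLC5A1 and AGR2. SLC5A1, the sodium glucose cotransporter SGLT1, differed from ABCG2 by a root mean square of 0.33 on the log2 scale, where ABCG2 itself varied by 1.66 around its mean. Its level was 14.3 ± 5.10 FPKM for LL, 1.22 ± 1.16 for DP and 4.38 ± 1.13 for LG (SD, n = 3). AGR2, a protein disulfide isomerase of secretory epithelia, differed by 0.34 and measured 9.77 ± 2.21, 0.277 ± 0.140 and 1.76 ± 1.46 FPKM in the same order.

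ABCA1, the transporter that loads cholesterol onto apolipoprotein A-I, measured 26.40, 24.71 and 22.73 FPKM in the DP libraries, against 1.88, 1.59 and 2.61 in those of LL and 3.32, 3.25 and 3.49 in those of LG. The DP libraries stood far above the other 6 and varied little among themselves (24.6 ± 1.84, SD, n = 3). The scaled mean in DP was 4.58-fold that in LL and 6.23-fold that in LG, or 8.12-fold and 8.89-fold with the amounts subtracted by the first way. The log2 fold change was 1.94 (SE 0.13, limma adjusted p = 5.32e-06) in DP against LL and -2.27 (SE 0.13, limma adjusted p = 9.97e-06) in LG against DP. Both calls held in all 22 other settings, with ranges of 1.81 to 3.09 and -2.63 to -2.22.

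LL and LG were not told apart for ABCA1, and the sign of their difference depended on the scale. As deposited, all LG values were above all LL values (3.35 ± 0.12 against 2.03 ± 0.53 FPKM, SD, n = 3), whereas after scaling all LG values (2.64 to 2.77) were below those of LL (2.87 to 4.31). The log2 fold change was -0.32 (SE 0.13, limma adjusted p = 0.064) with scaling and 0.54 (limma adjusted p = 0.00676) without it, and neither was called.

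ABCG1, which passes cholesterol to HDL, measured 4.44, 3.88 and 2.16 FPKM in the DP libraries, against 0.57, 0.40 and 0.40 in those of LL and 0.21, 0.68 and 0.49 in those of LG. The 3 DP values were above the other 6, with DP replicate 3 the lowest of them, and LL and LG overlapped as deposited. The scaled mean in DP was 2.81-fold that in LL and 6.46-fold that in LG. In LG against DP the log2 fold change was -1.28 (SE 0.20, limma adjusted p = 0.0011), a call that was lost (-0.69, adjusted p = 0.0626) when the library's amount was subtracted from each value at or above it, a step that lowers ABCG1 in DP and leaves its LL and LG values as they are. In DP against LL it was 0.85 (SE 0.20, limma adjusted p = 0.00509), under the fold threshold, with 0.11 (adjusted p = 0.746) after that subtraction. It was called without scaling (1.59), with 2 other scalings (1.11 and 1.14), with a pseudocount of 0.1 (1.37) and without DP replicate 3 (1.03). LG and LL differed by -0.43 (SE 0.20, limma adjusted p = 0.0936), and by -1.07 with a pseudocount of 0.1 (limma adjusted p = 0.0405), where the difference was called.

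The ratio of ABCG1 to ABCA1 depended on the library amounts. As deposited, ABCG1 stood at 0.153 to 0.303 of the ABCA1 value for LL, 0.095 to 0.168 for DP and 0.0633 to 0.209 for LG. These ranges overlapped in all 3 comparisons (exact two-sided permutation test, n = 3 per stage, p = 0.3, 0.2 and 0.8 for DP against LL, LG against LL and LG against DP), which with 3 libraries a stage does not show that the ratios were alike. With the amounts subtracted by the first way, LL (0.36 to 1.38) stood above DP (0.102 to 0.175) and LG (0.115 to 0.332).

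Macrophage markers moved with ABCA1 and ABCG1. The summed FPKM of CD68, CSF1R, MSR1, MRC1, AIF1, C1QA and C1QB (7 of 8 listed genes in the table, none at 0) was 38.1 to 47.5 for LL, 240.8 to 305.4 for DP and 93.4 to 100.9 for LG, or 68.9 to 93.6, 167.1 to 212.2 and 72.5 to 84.3 after scaling. In DP against LL 4 of the 7 were called higher, and in LG against DP all 7 were called lower. In LG against LL, CD68 and MSR1 were called lower, at -1.05 each. The fibroblast markers COL1A1, COL1A2, DCN, LUM and PDGFRA also moved this way, with 4 of 5 called higher in DP against LL, 2 of 5 (DCN and PDGFRA) lower in LG against DP, COL1A1 higher in LG against LL, and a summed scaled FPKM of 151 to 235 for LL, 359 to 1593 for DP and 253 to 484 for LG. The part of these cells in the ABCA1 and ABCG1 results was not tested.

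LARP6 was the gene nearest to ABCA1 over the 9 libraries, at a root mean square difference of 0.22 where ABCA1 varied by 1.01. LARP6, an RNA-binding protein of collagen mRNAs, measured 0.127 ± 0.091 FPKM for LL, 6.99 ± 0.43 for DP and 0.373 ± 0.169 for LG (SD, n = 3). Its LL and LG values were under the library amounts. Nearest to ABCG1, which varied by 0.57, were the tyrosine kinase gene PTK2B (difference 0.13, with 1.36 ± 0.14, 7.34 ± 1.98 and 1.68 ± 0.35 FPKM) and the nuclear envelope gene SYNE1 (0.15, with 2.39 ± 0.28, 14.2 ± 3.51 and 3.94 ± 0.29 FPKM). LARP6, PTK2B and SYNE1 were all highest in DP, which follows from their choice as nearest to 2 genes that were highest there.

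ABCA7, whose row cannot be separated from that of CNN2, measured 1.66, 1.70 and 2.06 FPKM in the LL libraries, 11.93, 6.54 and 10.55 in those of DP and 2.22, 8.78 and 6.95 in those of LG. LL was the lowest stage as deposited, and LG replicate 1 lay with LL while the other LG libraries lay among those of DP. After scaling LL (3.07 to 3.40) stayed below DP (4.54 to 7.81) and overlapped LG (1.85 to 7.12). No comparison was called, with log2 fold changes of 0.80 (SE 0.34, limma adjusted p = 0.068) in DP against LL, 0.30 (limma adjusted p = 0.48) in LG against LL and -0.49 (limma adjusted p = 0.282) in LG against DP. In DP against LL ABCA7 was called when the amounts were subtracted, at 1.37 or 1.40 by the 2 ways of subtraction. Its row already lies below that of CNN2 by these amounts, so this subtraction may take off too much. ABCA7 was also called in DP against LL in 3 of the other scalings (1.16 to 1.89), and in LG against LL without scaling (1.17). Without LG replicate 2 the difference between LG and LL was -0.010, and without LG replicate 1 it was 0.74.

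ABCA1 was 2.15 to 3.78 times ABCA7 in DP, 0.935 to 1.27 times in LL and 0.37 to 1.5 times in LG. DP did not overlap either other stage (exact two-sided permutation test, n = 3 per stage, p = 0.1 for each, the smallest p that 3 against 3 allow), and LL and LG overlapped (p = 0.4). With the amounts subtracted by the first way, DP (2.32 to 4.61) and LG (0.27 to 2.53) overlapped, through LG replicate 1, and DP stayed above LL (0.725 to 1.98).

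**Figure D3:**
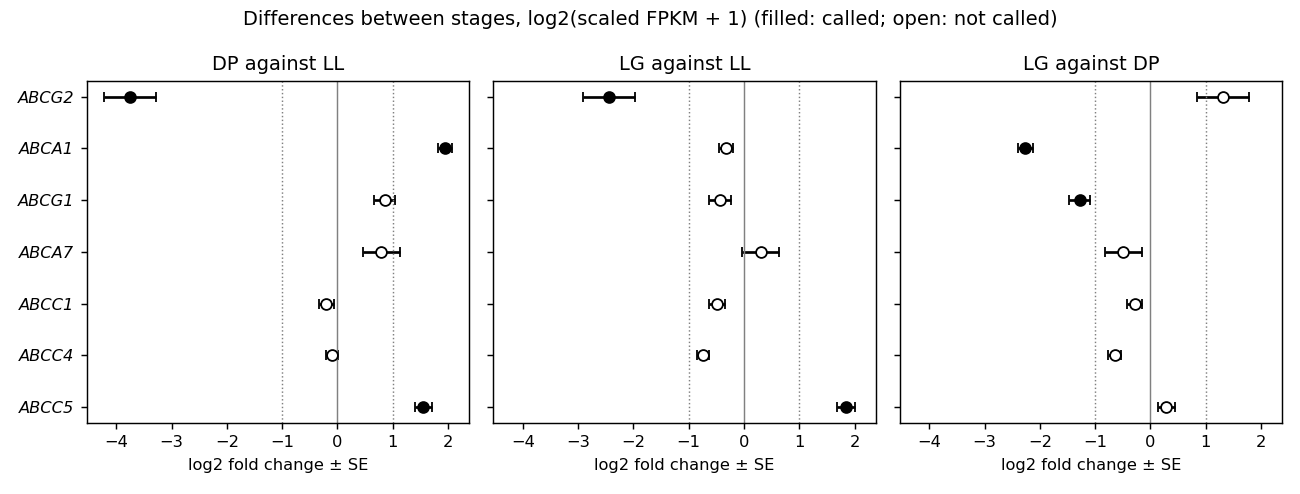
Log2 fold change ± SE (x axis, log2 of scaled FPKM + 1, limma over 9 libraries) of the 7 genes (y axis) in the 3 comparisons, filled where called and open where not, with dotted lines at -1 and 1. ABCG2 sits at -3.75 and -2.44 against LL, ABCA1 at 1.94 and -2.27 in the comparisons with DP, and ABCC5 at 1.56 and 1.84 against LL.

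ABCC5, an exporter of cyclic nucleotides and other organic anions, measured 0.07, 0.08 and 0.17 FPKM in the LL libraries, against 4.06, 4.69 and 2.49 in those of DP and 3.65, 4.04 and 4.55 in those of LG. The 3 LL values were the lowest of the gene, and DP and LG overlapped. The scaled mean in LL was 13.5-fold below that in DP and 17.3-fold below that in LG. The log2 fold change was 1.56 (SE 0.16, limma adjusted p = 4.88e-05) in DP against LL and 1.84 (SE 0.16, limma adjusted p = 2.76e-05) in LG against LL. Subtracting the library's amount from each value at or above it, which lowers DP and LG but not LL, left 0.93 (adjusted p = 0.00834, under the fold threshold) and 1.31 (adjusted p = 0.00219, called). DP and LG differed by 0.29 (SE 0.16, limma adjusted p = 0.19).

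ABCC1, which exports glutathione conjugates, measured 1.23, 1.63 and 2.08 FPKM in the LL libraries, 3.32, 3.13 and 4.31 in those of DP and 2.42, 2.03 and 2.31 in those of LG. ABCC4, an exporter of cyclic AMP and prostaglandins, measured 1.62, 1.94 and 2.33 FPKM in the LL libraries, 4.78, 4.38 and 5.11 in those of DP and 2.30, 1.98 and 2.07 in those of LG. DP was above the other stages for both genes as deposited, while after scaling DP and LL overlapped and LG was the lowest stage. In LL and LG both genes lay close to the library amounts, and subtracting these left 0.23 to 0.58 FPKM of ABCC1 and 0.62 to 0.83 of ABCC4 in LL.

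Neither gene was called in any comparison, except ABCC4 in LG against LL with a pseudocount of 0.1 (-1.02). In DP against LL the log2 fold changes were -0.20 for ABCC1 (SE 0.14, limma adjusted p = 0.239) and -0.10 for ABCC4 (SE 0.11, limma adjusted p = 0.46), and their signs turned without scaling (0.80 and 0.96), under 2 other scalings and when the amounts were subtracted. In LG against LL they were -0.49 (SE 0.14, limma adjusted p = 0.0152) and -0.75 (SE 0.11, limma adjusted p = 0.00052), under the fold threshold, and turned to 0.31 and 0.078 without scaling. For ABCC1 this difference shrank to -0.068 (adjusted p = 0.773) and -0.044 (adjusted p = 0.874) under the 2 ways of subtraction. In LG against DP ABCC4 was lower by a log2 fold change of -0.65 (SE 0.11, limma adjusted p = 0.0018), with -0.95 to -0.51 over all settings, and ABCC1 by -0.29 (limma adjusted p = 0.133).

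Ratios within a library do not depend on scaling. ABCC1 was 0.759 to 0.893 of ABCC4 in LL and 0.695 to 0.843 in DP, ranges that overlapped (exact two-sided permutation test, n = 3 per stage, p = 0.3), and 1.03 to 1.12 in LG, apart from both (p = 0.1 each). ABCC1 was 12.2 to 20.4 times ABCC5 in LL, 0.667 to 1.73 times in DP and 0.502 to 0.663 times in LG. ABCC5 was 0.0412 to 0.073 of ABCC4 for LL, 0.487 to 1.07 for DP and 1.59 to 2.20 for LG. For both of these ratios all 3 stages stood apart. The LL ratios depended on the library amounts. With these subtracted by the first way, ABCC1 was 0.371 to 0.699 of ABCC4 and 3.29 to 4.12 times ABCC5 in LL. ABCC5 was then 0.113 to 0.205 of ABCC4 in LL. For all 3 ratios the same stages stood apart as before the subtraction.

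ABCG2 was 13.1 to 54.0 times ABCA1 in LL, 0.393 to 0.470 times in DP and 4.85 to 13.3 times in LG, so the order of these genes turned in the dry period. As deposited, the ratio of ABCG2 to each of the other 6 genes was higher in LL and in LG than in DP in every library. LL and LG overlapped in 5 of these 6 ratios and were apart for ABCG2 over ABCC5, at 201 to 1450 in LL and 3.72 to 12.1 in LG. With the amounts subtracted by the first way, 3 of the 6 overlapped, since ABCG2 over ABCA1 (29.4 to 231 for LL, 6.39 to 23.5 for LG) and over ABCC1 (56.2 to 437 for LL, 12.1 to 46.5 for LG) then stood apart too. When the amount was subtracted from each value at or above it, ABCG2 over ABCC5 overlapped between LG (4.48 to 19.9) and DP (3.17 to 7.52).

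Ratios of 11 pairs of the 7 genes were compared, 6 of which share ABCG2. The stages did not overlap for 9 pairs when DP was set against LL, for 4 when LG was set against LL and for 10 when LG was set against DP, or 10, 7 and 9 with the amounts subtracted by the first way. Over all pairs of 14341 tested genes above 0 in every library, 65.1%, 62.4% and 50.5% did not overlap in these comparisons, so that a ratio without overlap was common in this table. Each of the 23 gave p = 0.1, the smallest p possible (exact two-sided permutation test, n = 3 per stage). The Benjamini-Hochberg adjusted p was 0.143 over 33 tests. With 3 libraries a stage no ratio could reach an adjusted p under 0.05 whatever its values, so the correction decides nothing about the ratios.

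PRPF40B, a pre-mRNA splicing factor, was among the genes nearest to ABCC5 over the 9 libraries, at a root mean square difference of 0.13 where ABCC5 varied by 0.83. It measured 0.21 ± 0.026 FPKM for LL, 4.72 ± 0.55 for DP and 4.74 ± 0.36 for LG (SD, n = 3). Like ABCC5, it was under the library amounts in LL.

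Within a stage, the order of the 7 genes by deposited FPKM was as follows. In LL, ABCG2 stood first, ABCA1 (2.03), ABCC4 (1.96), ABCA7 (1.81) and ABCC1 (1.65) overlapped each other, and ABCG1 (0.457) and ABCC5 (0.107) came last without overlap. The place of ABCG1 in LL depended on the library amounts. With these subtracted, ABCG1 (0.40 to 0.57) overlapped ABCC1 (0.23 to 0.58), ABCA7 (0.40 to 0.66) and ABCA1 (0.29 to 1.11). In DP, ABCA1 (24.6) stood above ABCG2 (11.0) and ABCA7 (9.67), which overlapped, and ABCC4 (4.76), ABCC5 (3.75), ABCC1 (3.59) and ABCG1 (3.49) followed with overlap between neighbours. In LG, ABCG2 (27.2) was followed by ABCA7 (5.98), which overlapped ABCC5 (4.08), ABCA1 (3.35), ABCC1 (2.25) and ABCC4 (2.12), and ABCG1 (0.46) was the lowest in all 3 libraries.

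ABCG2 was the highest ABC gene in all 3 LL libraries and in LG replicate 1. It made up 57.8%, 43.7% and 25.8% of the summed FPKM of the 45 ABC genes in LL (42.4% ± 16.0, SD, n = 3), 4.08% ± 0.78 in DP and 11.0% ± 6.33 in LG. ABCA1 made up 1.35% ± 0.54 in LL, 9.14% ± 1.02 in DP, where it ranked first or second, and 1.35% ± 0.03 in LG. The 3 stages did not overlap for ABCG2, nor did DP and the other stages for ABCA1 (exact two-sided permutation test, n = 3 per stage, p = 0.1, the smallest possible). The share of ABCG2 in LL was 49.3% or 51.7% with the amounts subtracted. The other leading genes were ABCE1 in LL and, in DP and LG, ABCE1, the peptide transporters TAP1 and TAP2 and the peroxisomal transporter ABCD3.

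**Figure D4:**
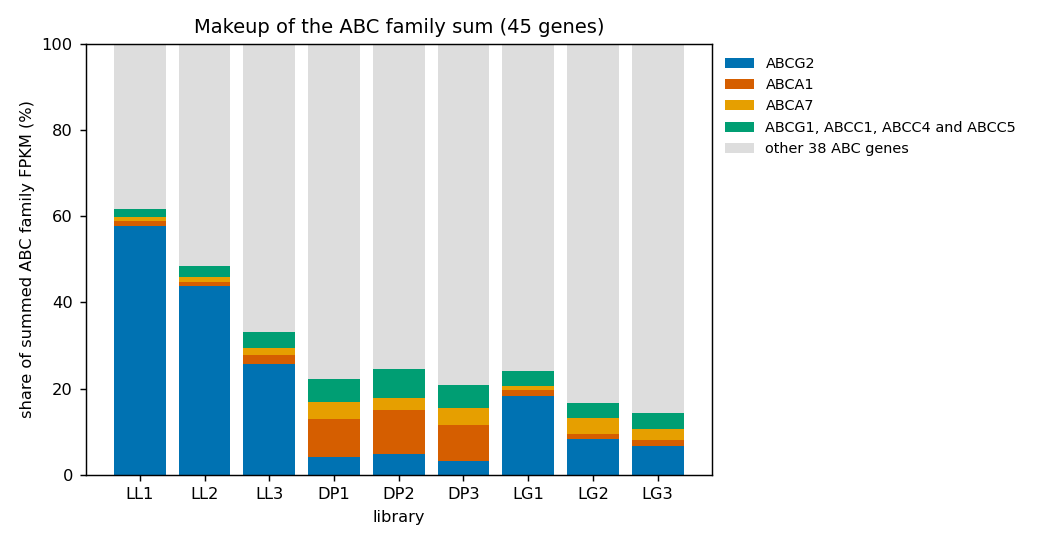
Share of the summed FPKM of 45 ABC family genes (y axis, %) in each of the 9 libraries (x axis), stacked for ABCG2, ABCA1, ABCA7, the other 4 members together and the other 38 ABC genes. ABCG2 takes 25.8% to 57.8% in LL and 3.29% to 4.85% in DP, and ABCA1 8.37% to 10.3% in DP.

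Of the 45 ABC genes, 33 were tested, and the 26 that are not among the 7 gave 3 calls higher and 2 lower in DP against LL, 4 and 4 in LG against LL, and 2 and 2 in LG against DP. Their median log2 fold change was 0.31, -0.19 and -0.02, beside 0.00, 0.02 and 0.01 for all genes. Of all genes tested, 13.8% were called higher and 8.79% lower in DP against LL. These shares were 10.7% and 6.61% in LG against LL, and 6.37% and 6.88% in LG against DP. Lower in DP than in LL, as ABCG2 was, were the lipid transporters ABCA3 (-2.92, SE 0.20) and ABCA2 (-1.84, SE 0.20), and higher were ABCC9 (1.56), ABCA6 (1.5) and ABCC10 (1.25). ABCA2 (-2.15), ABCA3 (-1.52) and ABCA10 (-1.48) were lower in LG than in LL and ABCC10 (1.72), TAP2 (1.67) and ABCD3 (1.59) higher. ABCA6 (-2.52) and ABCA10 (-2.12) were lower in LG than in DP, as ABCA1 was, and ABCA3 (1.40) and ABCD4 (1.12) higher (all called by limma). Like ABCC5, ABCC9 (0.04 to 0.14 FPKM) and ABCC10 (0 to 0.39) were under the library amounts in LL, as was ABCA10 in LG (0.21 to 0.64). Their log2 fold changes after subtraction are not reported here. Without scaling the 33 genes gave 17 calls higher and 2 lower in DP against LL, instead of 5 and 3. Over all 14701 genes, 7979 and 369 were then called.

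Among 16 tested partners of sterol efflux, 5 were called higher and 1 lower in DP against LL, where 13.8% and 8.79% of all genes were. In LG against LL 2 were called lower, against 6.61%, and in LG against DP 4, against 6.88%. No partner was called higher in either of these, against 10.7% and 6.37%. By direction alone, 9 were higher and 7 lower in DP against LL. These counts were 5 and 11 in LG against LL, and 4 and 12 in LG against DP. The medians were 0.34, -0.21 and -0.48. Called higher in DP than in LL were APOE (1.98, SE 0.51, limma adjusted p = 0.00865), which carries the exported cholesterol, PLTP (1.61, SE 0.18), a phospholipid transfer protein, and NCEH1 (1.26, SE 0.12), a cholesteryl ester hydrolase. The other partners called higher were MYLIP (1.18), a liver X receptor target that degrades the LDL receptor, and LIPA (1.10), the lysosomal acid lipase. NCEH1 was under the library amounts in LL, at 0.08 to 0.10 FPKM. APOE measured 24.6 ± 3.48 FPKM for LL, 273 ± 87.6 for DP and 132.8 ± 106.9 for LG (SD, n = 3). NPC1, which exports cholesterol from lysosomes, fell by 1.11 on the log2 scale although its deposited mean was 11.3 in DP and 9.80 in LL.

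LIPA (-2.04), PLTP (-1.86), LCAT (-1.45) and MYLIP (-1.38) fell in LG against DP, and LCAT (-2.37), which esterifies cholesterol on HDL, and NPC2 (-1.22) fell in LG against LL. The values of NPC1 and LCAT are linked to those of a neighbour. NR1H3, which encodes the liver X receptor alpha, had 0.63 (limma adjusted p = 0.00788) in DP against LL and -0.51 (limma adjusted p = 0.0317) in LG against DP, both under the fold threshold. NR1H2, which encodes the beta form, had 0.17 (limma adjusted p = 0.291) and -0.33 (limma adjusted p = 0.081).

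Genes of xenobiotic sensing and glutathione conjugation were listed as partners of the ABCC exporters, and 6 of the 11 were tested. GSTP1, GSTA1 and GSTM1 were not among the deposited genes, so no gene that conjugates glutathione was tested. The sensors NR1I2 and NR1I3 were under the filter. In DP against LL, AHR was called higher (1.70, SE 0.26), against 13.8% of all genes. GSS (-3.64, SE 0.32) and GGT1 (-1.40, SE 0.21) were called lower there, against 8.79%. By direction alone, 4 of the 6 were higher and 2 lower in DP against LL. In each of the other comparisons 1 was higher and 5 were lower. GGT1 was also called lower in LG against LL (-1.65), against 6.61% of all genes. GSS was called higher in LG against DP (3.14), against 6.37%. GSS, the glutathione synthetase, measured 30.6 ± 11.2 FPKM for LL, 5.21 ± 2.49 for DP and 47.7 ± 12.9 for LG (SD, n = 3). The values of GGT1 are linked to those of a neighbour. The medians of the 6 genes were 0.11, -0.36 and -0.47.

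Of the other cell type markers, all 5 T lymphocyte genes were called higher in DP against LL and 3 of 5 in LG against LL, and CD5 was called higher in LG against DP. JCHAIN, the 1 of 5 B lineage genes that was tested, was called lower in DP and LG than in LL and lower in LG than in DP. Of 4 basal epithelial genes, TP63 was higher in DP and in LG against LL and OXTR in LG against both, 1 of 5 endothelial genes (TEK) was lower in LG against DP, and neither of 2 tested adipocyte genes was called. CD3D, CD3G, CD5, TP63 and OXTR were under the library amounts in LL, at 0.26 FPKM or less. Both erythrocyte genes in the table were under the filter, ALAS2 at 0 in all 9 libraries. In LL, LEP was also at 0 in all 3 libraries. Their part in the values of the 7 genes was not tested.

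**Figure D5:**
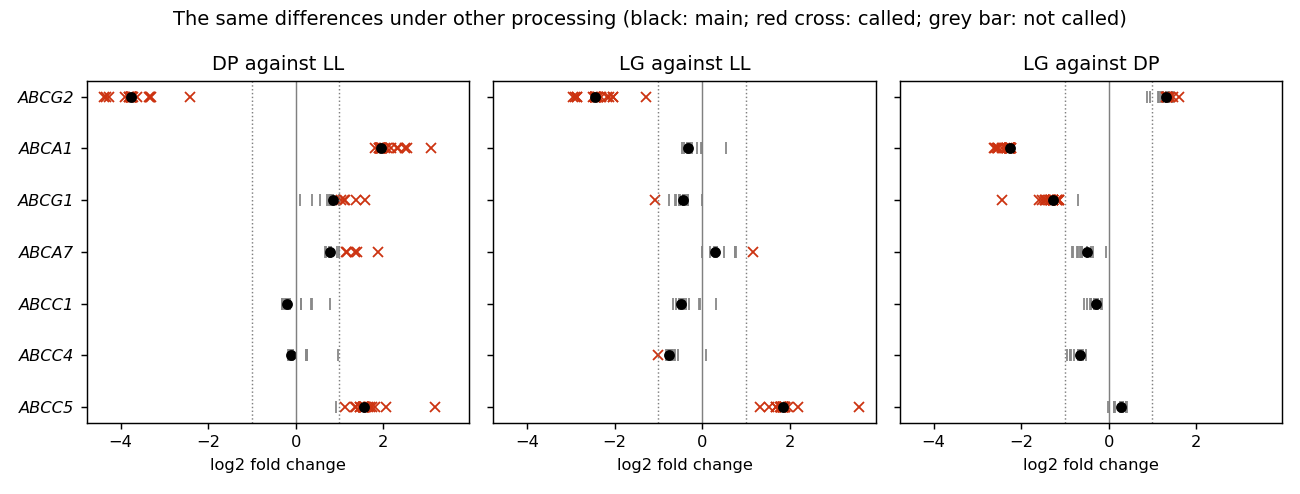
Log2 fold change (x axis) of the 7 genes (y axis) in the 3 comparisons under the main processing (black points) and up to 22 other settings (red crosses where called, grey bars where not). ABCG2 and ABCA1 stay on 1 side of 0 in every comparison with a call, while ABCC1 and ABCC4 cross 0 in DP against LL, from -0.31 to 0.80 and from -0.18 to 0.96.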

How the data were processed

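Mammary gland RNA of 9 Laoshan dairy goats was made into Illumina TruSeq libraries that were read on a HiSeq. The authors ran FastQC, Trimmomatic, HISAT2 and SAMtools. The study's methods name StringTie for quantification and the labels name HTSeq. The deposited values were taken as FPKM made by the authors, because they have decimals and their sums differ between libraries (601250 to 1157015). The study's methods point to the goat reference genome by a sample record, with no build name, and how transcripts were turned into genes is not given in the sources used here. Other libraries of the study were not analysed here.

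FPKM were divided by median-ratio factors from 15905 genes above 0 in every library, and a pseudocount of 1 was used for log2 values. A gene entered the test if 3 or more libraries reached 0.5 FPKM, which left 14701. The model was fitted with limma 3.58.1 under R 4.3.3, by eBayes on the 3 contrasts with a trend of variance on mean, over all 9 libraries, with no covariates and Benjamini-Hochberg adjustment over all genes. The scripts were tested on simulated data. Ratios and shares were compared with exact permutation tests (scipy 1.17.1 in Python 3.11.15), the shares after values were seen. The share of all gene pairs without overlap was counted after values were seen.

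The 7 genes, the lists of ABC genes, sterol efflux partners and xenobiotic genes and the markers of 10 cell types were chosen with earlier results of these data known. Named from each list were the 3 called genes that moved most in each direction and comparison, and for each called member the 2 genes nearest by root mean square difference, some of which are not reported here. MYLIP, LIPA in DP, NR1H3, NR1H2 and single marker genes were named after their values were seen. Linked values were searched for between each of 15945 genes and its 8 neighbours on either side, and 1511 genes followed a neighbour to within 1% of their range. Alternatives covered scaling, pseudocount, filter, libraries in the fit, replicate block, trend and call rule, and, added after the data were seen, the amounts, a scaling on genes with a mean of at least 20 FPKM, linked genes left out and the settings of ratios and shares.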

Additional observations from a re-analysis of the deposited data

How the results depend on the processing

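Of the log2 fold changes of the 7 genes under all alternatives, 419 values kept their direction and side of the thresholds, 21 became called, 2 lost the call and 16 turned sign. The cause was not tested unless given. ABCC1 and ABCC4 in DP against LL turned without scaling (0.80 and 0.96), with scaling by the sum outside the 100 highest genes (0.125 and 0.25), with scaling on genes with a mean of at least 20 FPKM (0.13 and 0.25), with the amounts subtracted from genes at or above them in all libraries (0.34 and 0.23) and with the amounts subtracted value by value (0.37 and 0.27). In LG against LL without scaling, ABCA1 (0.54), ABCC1 (0.31) and ABCC4 (0.078) turned, as did ABCA1 (0.0082) after subtraction value by value and ABCA7 without LG replicate 2 (-0.010, beside up to 0.74 without LG replicate 1). In LG against DP, ABCC5 (-0.0099) turned with the scaling on genes with a mean of at least 20 FPKM. The subtraction value by value ended the calls of ABCG1 in LG against DP (-0.69) and of ABCC5 in DP against LL (0.93), and left 1 member called in LG against DP instead of 2.

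The members called in DP against LL numbered 3, and 5 without scaling, with the sum scaling and with the scaling on genes with a mean of at least 20 FPKM (4 higher, 1 lower), where ABCG1 and ABCA7 were added. Those called in LG against LL numbered 2, and 4 with a pseudocount of 0.1 (ABCG1 at -1.07 and ABCC4 at -1.02 added) and with the adjusted p alone. ABC family calls in DP against LL rose from 8 to 19 without scaling, 14 with either other scaling and 24 with the adjusted p alone. They rose from 10 to 21 in LG against LL with the adjusted p alone, and from 6 to 12 with the adjusted p alone and 10 with a pseudocount of 0.1 in LG against DP. Over all genes, the adjusted p alone gave 8359, 7383 and 5112 calls in place of 3321, 2544 and 1948, and no scaling gave 8348 (7979 higher, 369 lower, beside 2029 and 1292) in DP against LL and 7043 (6698 higher, 345 lower, beside 1572 and 972) in LG against LL. A pseudocount of 0.1 gave 3912 in LG against LL. In LG against DP, no scaling gave 715 higher and 1577 lower, the sum scaling 732 and 1356 and the scaling on genes with a mean of at least 20 FPKM 516 and 1789, beside 937 and 1011. In the first 2 comparisons the sum scaling gave 3103 and 774, and 1993 and 728, and in DP against LL the scaling on genes with a mean of at least 20 FPKM gave 3197 and 783. The share of ABCA1 in DP moved from 9.14% to 10.2% without ABCB1, ABCB4 and ABCA7 and to 10.3% with subtraction value by value.

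With each library left out in turn, 3 to 4, 2 and 2 to 3 members were called in DP against LL, LG against LL and LG against DP, 8 to 11, 9 to 10 and 6 to 8 ABC family genes, and 3075 to 3422, 2400 to 2576 and 1738 to 2004 genes. The ratios between members without overlap numbered 23 to 29, and 24 to 26 under the other alternatives. Without DP replicate 3, ABCG1 was called in DP against LL (1.03). The replicate numbers do not pair the animals (correlations of same-numbered deviations from -0.106 to 0.201), and the replicate block gave 3, 2 and 3 members, 8, 10 and 7 ABC family genes and 3340, 2564 and 1986 genes, the added member being ABCG2 in LG against DP. ABCA7 was not tested with linked genes left out, and ABCG1 in LG against LL not in the fit of 2 stages. The depth behind each FPKM is unknown, so low values such as those of ABCC5 and ABCG1 in LL cannot be given a counting error.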
